A study of Homo sapiens with 9 samples.

Results

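The windows described here are 50 kb stretches of the human autosomes in which nascent DNA of HCT116 cells fell more into the count column numbered 6 than nascent DNA of RPE1 cells did. They were chosen by their measured values. Reads in 1 kb bins were summed to 50 kb windows of the 22 autosomes, windows with at least 30 reads in each of the 3 deposited tables were kept, and the 3 count columns of each table (columns 4, 5 and 6) were scaled to the same total. The share of a column is its part of the scaled reads of a window, in percent. A window was taken when its column 6 share in HCT116 lay at least 20 percentage points above that of each of the 2 RPE1 tables. Of 57633 autosomal windows 53898 were kept, and 2137 of those met the rule, which is 3.96% of the kept windows and 106.85 Mb of DNA. The opposite rule, HCT116 at least 20 points below each RPE1 table, was met by 3958 windows or 7.34%. When HCT116 shares were first placed on the ranks of the RPE1 shares, these parts became 6.02% above and 6.16% below, so the balance of the directions depended on the scaling.

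RPE1 cells derive from the retinal pigment epithelium and were made immortal with telomerase, and HCT116 cells come from a colorectal carcinoma. Both were grown in the same medium without synchronisation, received no other agent per the labels, were given a short pulse of EdU, a thymidine analogue that new DNA takes up, and were then sorted into early, mid and late S phase. Per the labels RPE1 was done in duplicate, here called set 1 and set 2, and HCT116 is 1 set, giving 9 libraries in 3 tables. The labels leave unsaid whether set 1 and set 2 were separate cultures, and the HCT116 set has no replicate, so its values carry no replicate error. The mid and late HCT116 libraries are numbered replicate 2 and the early one has no number.

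The tables name no columns, and the labels do not say which column holds which fraction. A higher column 6 share means later replication only if column 6 is the late fraction, and the sources used here do not give that. The windows are therefore called by their rule, as windows with a higher column 6 share in HCT116, or member windows. With 2 RPE1 sets against 1 HCT116 set the smallest p that an exact permutation test could give is 0.33, and no p-value was computed. Replicate error is given below as the SD of set 1 and set 2, with n = 2. Column totals over all bins lay between 6170299 and 22930078 reads. A member window held a median of 391 reads in set 1, 837 in set 2 and 432 in HCT116. A window of that depth has a 95% Wilson interval on its column 6 part of the reads from 25.8 to 34.9% in set 1, from 18.7 to 24.3% in set 2 and from 37.8 to 47.1% in HCT116, before scaling and for counting error only.

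As background, mammalian chromosomes replicate in a set order through S phase. Neighbouring origins fire at similar times, so that megabase-scale domains replicate together. Domains rich in active genes and open chromatin tend to replicate early, while gene-poor and lamina-associated domains and silent tissue-specific genes tend to replicate late, and the time of many domains differs between cell types. Genes for adhesion, matrix, neuronal and developmental functions often lie in such cell-type-dependent domains.

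Sequences are shown for a few genes in the longest runs of member windows, to fix what lies there. They are reference sequences credited to RefSeq, GRCh38.p14, and not sequence read from these cells. The longest run, on chromosome 6, holds the genes of 2 microRNAs of the miR-30 family, MIR30C2 and MIR30A, on the minus strand. Their mature 5p arms share the seed (bases 2 to 8, in capitals), the stretch through which a microRNA mainly recognises its targets. The run on chromosome 3 around ARPP21 holds MIR128-2, on the plus strand, with another seed. No RNA was measured, so nothing is known here of their levels.
hsa-miR-30a-5p: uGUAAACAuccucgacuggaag
hsa-miR-30c-5p: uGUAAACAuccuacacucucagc
hsa-miR-128-3p: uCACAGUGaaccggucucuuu

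Promoter sequences show how unlike the starts of these genes are. The 250 bases before the start are printed, 5′ to 3′ on the minus strand of GRCh38.p14, for INHBA (chr7:41703091-41703340), which lies in one of the 20 longest runs, for CDH2 (chr18:28177131-28177380), whose run holds the largest single-window difference, and for BNC2 (chr9:16870671-16870920), whose run is the longest with column 4 as its origin. The dinucleotide CG, the site of DNA methylation, is in capitals. INHBA has 1 CG in this stretch, CDH2 has 17 and BNC2 has 36. These 3 genes were picked after their values were seen.
INHBA: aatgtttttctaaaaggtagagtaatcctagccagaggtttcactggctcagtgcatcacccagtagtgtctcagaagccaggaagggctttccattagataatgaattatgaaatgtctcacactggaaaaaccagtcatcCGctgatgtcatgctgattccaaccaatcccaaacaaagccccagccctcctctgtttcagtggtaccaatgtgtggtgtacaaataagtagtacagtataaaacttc
CDH2: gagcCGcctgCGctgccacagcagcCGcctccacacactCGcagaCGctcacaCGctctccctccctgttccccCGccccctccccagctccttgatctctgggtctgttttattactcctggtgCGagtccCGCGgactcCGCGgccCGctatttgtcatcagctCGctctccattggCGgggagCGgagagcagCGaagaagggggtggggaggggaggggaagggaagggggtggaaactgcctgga
BNC2: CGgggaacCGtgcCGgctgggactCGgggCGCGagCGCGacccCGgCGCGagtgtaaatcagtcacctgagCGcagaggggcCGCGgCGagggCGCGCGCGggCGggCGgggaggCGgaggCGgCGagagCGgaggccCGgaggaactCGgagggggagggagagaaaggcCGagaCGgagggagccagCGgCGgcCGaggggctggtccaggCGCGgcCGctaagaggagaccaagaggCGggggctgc

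Of the 43 protein-coding genes named for the 20 longest runs, 33 were in the RefSeq promoter table. They had a median of 19 CG dinucleotides in those 250 bases, and 69.7% had at least 15. Over all 15843 protein-coding genes in the table the median was also 19, and 63.1% had at least 15. The search was for the letters CG, which read the same on both strands. CG-rich and CG-poor starts both occurred among the named genes, from 0 at SPINK1 to 38 at RGS7. These starts have GRCh38.p14 positions and were not placed in hg19, the build of the run coordinates. Some may lie outside the runs that their genes reach into.

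In the member windows HCT116 had its largest mean share in column 6 and RPE1 had its largest in column 5. The mean column 6 share was 20.1% in set 1, 24.2% in set 2 and 54.6% in HCT116. RPE1 averaged 22.2% ± 2.92 (SD, n = 2), and HCT116 lay 32.4 points above that mean, a ratio of 2.46. This is the measure that chose the windows, so it describes them and supports nothing further. The range over windows was 1.44 to 48.6% in set 1, with a median of 18.8%, 8.44 to 44.9% in set 2, with a median of 23.5%, and 31.8 to 73.0% in HCT116, with a median of 55.9%. The ranges of the lines overlap across windows, while within any 1 member window HCT116 is above both RPE1 sets by the rule. Against all kept windows the member windows were middling in RPE1 and high in HCT116. Their median share lay above that of 46.0% of kept windows in set 1, 44.0% in set 2 and 80.6% in HCT116.

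**Figure D1:**
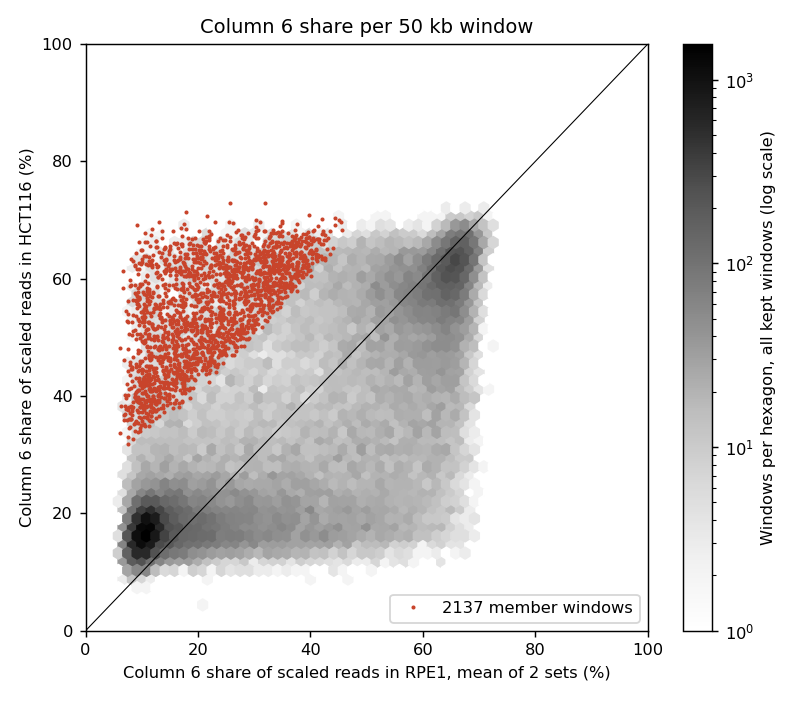
Each kept 50 kb window by its column 6 share in RPE1 (mean of the 2 sets, horizontal axis, percent) and in HCT116 (vertical axis, percent). Grey hexagons count all 53898 kept windows on a log colour scale, coloured points are the 2137 member windows and the line marks equal shares; the members lie above the line, at 31.8 to 73.0% in HCT116.

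The gap differed widely among member windows. Measured against the mean of the RPE1 sets it was 20.3 points at the lowest, 30.7 at the median and 59.997 at the highest. Measured against the nearer RPE1 set, 1375 of the windows (64.3%) were at least 25 points apart, 849 (39.7%) at least 30, 238 (11.1%) at least 40 and 14 at least 50. The RPE1 sets themselves differed by a median of 5.58 points in these windows, and by 9.36 points over all kept windows. The difference had a direction that changed with the windows. Set 2 minus set 1 averaged 4.13 points in member windows and 2.24 over all kept windows. It averaged -7.37 points in the windows with a lower column 6 share in HCT116. A gap of 20 points between the RPE1 sets occurred in 33 kept windows (0.0612%) with set 1 above set 2 and in 63 (0.117%) with set 2 above set 1.

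The column 6 share that HCT116 had in excess stood against lower shares of both other columns. Column 5 held 50.5% in set 1, 47.0% in set 2 and 27.2% in HCT116, which is 21.6 points below the RPE1 mean of 48.7% ± 2.49 (SD, n = 2). Column 4 held 29.4, 28.8 and 18.2% in the same order, with HCT116 10.9 points below the RPE1 mean of 29.1% ± 0.432 (SD, n = 2). Since the 3 shares of a table sum to the whole, a higher column 6 share must come with a lower sum of columns 4 and 5, and only the split between them is free. Both columns were lower in HCT116 than in the RPE1 mean in 1946 windows (91.1%), and column 5 was lower by more points than column 4 in 1725 (80.7%). In proportion the 2 columns were closer, with HCT116 at 0.557 of the RPE1 share in column 5 and 0.627 in column 4. Over all kept windows the scaling to equal column totals holds the mean shares close to each other, with 32.9% in RPE1 and 33.9% in HCT116 for column 4, 34.3 and 34.1% for column 5, and 32.7 and 32.0% for column 6.

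**Figure D2:**
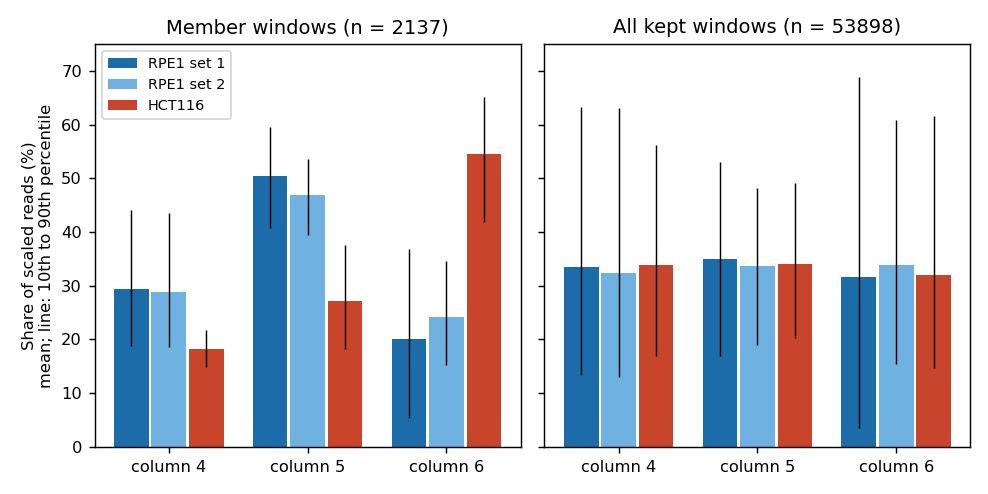
Mean share of scaled reads (percent, vertical axis) in columns 4, 5 and 6 for set 1, set 2 and HCT116, in the 2137 member windows (left) and in all 53898 kept windows (right). Bars start at 0 and lines span the 10th to 90th percentile of windows; in member windows column 5 stands highest in both RPE1 sets and column 6 stands highest in HCT116.

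The origin of a window is the larger of columns 4 and 5 in RPE1. Column 5 was the larger in both RPE1 sets in 1871 member windows (87.6%), column 4 in 164 (7.67%), and the sets differed in 102 (4.77%). Counted by set, column 5 was larger in 91.9% of member windows in set 1 and in 88.0% in set 2, a mean of 89.9% ± 2.71 (SD, n = 2). Column 5 was the larger in both sets in 61.6% of all kept windows, and in 44.3% of the 31842 in which column 6 led neither RPE1 set. The rule used only column 6, but its ceiling on RPE1 column 6 also shapes the other columns. The comparison was therefore repeated among the 15811 kept windows whose column 6 shares in RPE1 lay in the middle 80% of the members, from 5.35 to 36.9% in set 1 and from 15.3 to 34.6% in set 2. There column 5 was the larger in both sets in 94.5% of 1554 member windows and in 71.3% of 14257 other windows. This range was taken from the members and kept 42 of their 164 windows with column 4 as origin. The rise from 87.6 to 94.5% follows in part from that cut. The range is wide, and member and other windows inside it were not matched on column 6 share. A high part of column 5 was also found in the windows with a lower column 6 share in HCT116, where it was the larger in both sets in 83.0% and, counted by set, in a mean of 91.5% ± 11.9 (SD, n = 2).

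Most member windows passed from column 5 as the leading column in RPE1 to column 6 in HCT116. Column 5 had the highest of the 3 shares in both RPE1 sets in 1776 windows (83.1%), and in 1724 of these column 6 had the highest in HCT116. Column 4 led in both RPE1 sets in 163 windows, of which 123 were led by column 6 and 40 by column 5 in HCT116. HCT116 was led by column 6 in 2030 member windows (94.99%), by column 5 in 107 and by column 4 in 0. The rule asks for a high column 6 share in HCT116 and caps it in RPE1, so these leads follow in part from it. Over all kept windows column 5 led both RPE1 sets in 26.2%, column 4 led both in 27.7% and column 6 led HCT116 in 33.5%. Windows with column 4 as origin started lower in column 6, with means of 5.74% in set 1 and 16.3% in set 2, and reached 47.9% in HCT116 with 32.9% in column 5. Windows with column 5 as origin went from 22.04 and 25.3% to 55.5%, with 26.4% in column 5. The ratio of column 5 to column 4 was 1.72 in set 1, 1.63 in set 2 and 1.49 in HCT116, beside 1.05, 1.04 and 1.01 over all kept windows, which the scaling holds near 1. In the windows with a lower column 6 share in HCT116 it was 1.33, 2.02 and 1.53.

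The member windows lay next to each other far along the chromosomes. They formed 469 runs of strictly adjacent windows, with a median length of 100 kb, a mean of 228 kb and a longest run of 1700 kb. Single windows made up 172 of the runs (36.7%) but 8.05% of the windows. Runs of at least 250 kb numbered 163 and held 1604 windows (75.1%), runs of at least 500 kb numbered 64 and held 967 (45.3%), and 10 reached 1 Mb. Windows with a lower column 6 share in HCT116 formed 867 runs with a median of 150 kb and a longest of 2000 kb, with 35.4% of them in runs of at least 500 kb. Allowing a run to bridge 1 window left 352 runs of member windows.

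Longer runs held larger gaps, which follows in part from the rule, since the same gap sets where a run ends. The median gap to the RPE1 mean was 25.2 points for single windows, 26.7 for runs of 100 to 200 kb, 30.4 for 250 to 450 kb, 35.1 for 500 to 950 kb and 37.5 for runs of 1 Mb or more. Column 5 was the origin of 432 runs, of which 148 reached 250 kb. Column 4 was the origin of 22 runs, of which 6 reached 250 kb, and in 15 runs the RPE1 sets differed.

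The flanks of the runs describe where the runs lie. A run ends where the next window misses the rule, so a smaller gap in the flanks is set by the rule in part. For each of the 163 runs of at least 250 kb, the mean share of the 5 windows (250 kb) on either side was taken. The median flank had a column 6 share of 39.8% in set 1, 35.7% in set 2 and 53.2% in HCT116, against 20.7, 23.7 and 56.2% inside the runs. In RPE1 the run lay below both its flanks in 98 runs in set 1 and 101 in set 2, and in HCT116 it lay above both in 63. Column 6 led on both flanks in 50 runs in set 1, 24 in set 2 and 89 in HCT116. It led on neither flank in 48, 75 and 10 runs in the same order. Both RPE1 sets gave column 6 the lead on both flanks in 24 runs, on 1 flank in 46 and on neither in 48. In RPE1 the runs thus lay between column 6-led stretches, beside one, or with none on either side, and the sets gave different answers for the rest.

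Across the 326 edges of these runs the gap closed gradually. The gap between HCT116 and the RPE1 mean was 34.9 points 150 kb inside the outermost window, 27.6 points in that window, 18.8 points 50 kb outside, 10.1 at 250 kb, 6.13 at 500 kb and 4.65 at 1000 kb. Outside the runs the RPE1 column 6 share rose to 38.3% in set 1 and 36.6% in set 2 at 250 kb, while HCT116 fell from 54.1% in the outermost window to 47.5%. The step at the edge itself follows in part from the rule, which ends a run where the gap drops under 20 points.

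**Figure D3:**
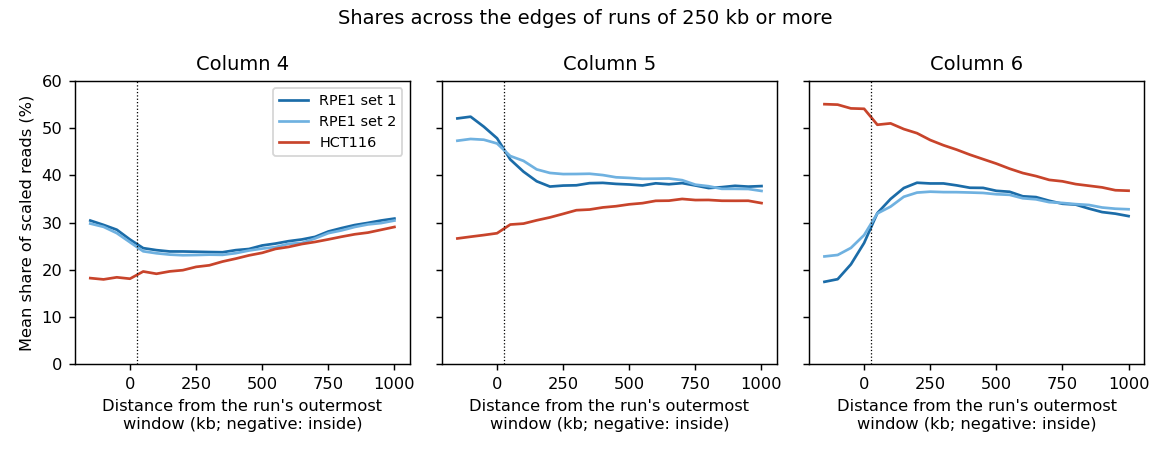
Mean share of scaled reads (percent) in columns 4, 5 and 6 by distance from the outermost window of a run (kb, negative inside), over 326 edges of runs of at least 250 kb. Lines are set 1, set 2 and HCT116 and the dotted line is the edge; in column 6 the lines are 34.9 points apart 150 kb inside and 10.1 points apart 250 kb outside.

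The 20 longest runs are named with the genes known to lie in or reach into them. They hold 421 windows (21.05 Mb, 19.7% of the member windows) on 12 chromosomes, 5 of the runs on chromosome 5. Coordinates are hg19. No hg19 annotation was used here, so the genes are given as background knowledge of their place, and exons, introns and UTRs cannot be stated. A gene said to lie in a run may also extend past its ends. The symbols, their chromosomes and the genes between them were checked against a RefSeq gene table of GRCh38.p14. Column 6 shares in these runs were 4.74 to 33.7% in set 1, 15.9 to 31.3% in set 2 and 50.0 to 64.1% in HCT116. These shares chose the windows, so the distance between the lines follows from the rule. set 2 was above set 1 in 19 of the 20. Each run held at least 6048 reads in each set, and the widest 95% Wilson interval was 2.30 points, for counting error only. The origin was column 5 in 17 runs, column 4 in 1 and differed between the RPE1 sets in 2.

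**Figure D4:**
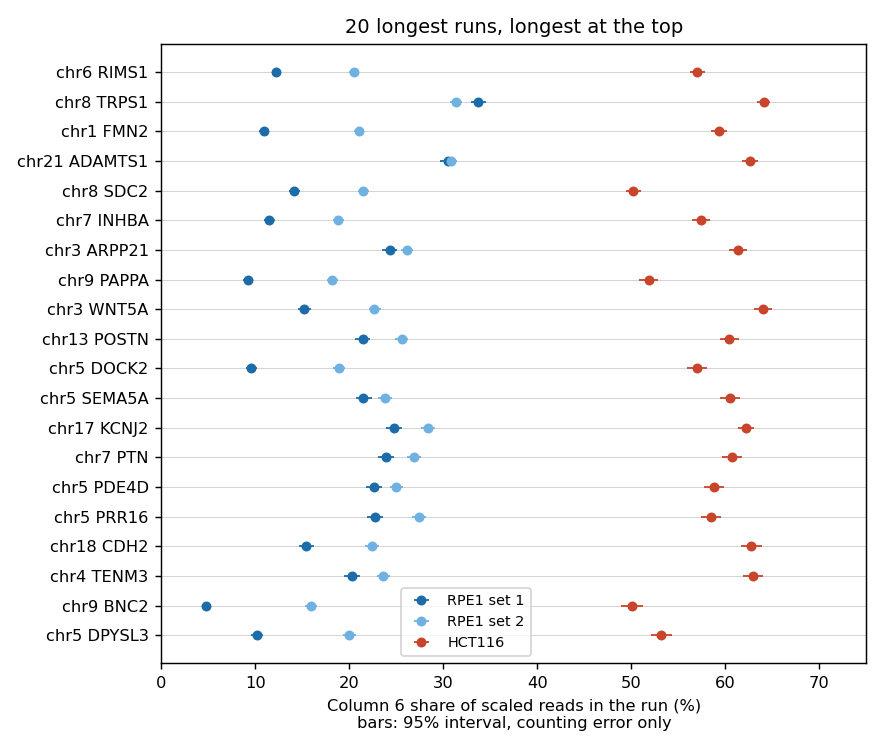
Column 6 share of scaled reads (percent, horizontal axis) in the 20 longest runs, longest at the top and each labelled with 1 gene, for set 1, set 2 and HCT116. Bars are 95% Wilson intervals for counting error. HCT116 points sit between 50.0 and 64.1% and all RPE1 points at or below 33.7%, a distance that follows from the rule.

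The longest run, chr6:71800001-73500000, holds OGFRL1, the miR-30 genes shown above, RIMS1, a scaffold of the presynaptic active zone, and the start of KCNQ5, a voltage-gated potassium channel. Its column 6 share was 12.2% in set 1, 20.5% in set 2 and 57.0% in HCT116, a gap of 40.8 points to the RPE1 mean of 16.3% ± 5.85 (SD, n = 2). It was not uniform in RPE1. In its outer stretches, chr6:71800001-72400000 and chr6:72900001-73500000, the share was 5.02 and 7.04% in set 1 and 16.3 and 17.3% in set 2, with column 4 at 54.7 and 43.2% in set 1 and at 57.7 and 43.0% in set 2. In the middle 500 kb, chr6:72400001-72900000, column 6 stood at 26.8% in set 1 and 28.1% in set 2. HCT116 kept 55.4, 61.7 and 54.5% in the left, middle and right stretches, which were divided after the values were seen. Its flanks were low in every set, at 18.4 and 13.5% in set 1, 25.7 and 23.3% in set 2 and 29.1 and 28.9% in HCT116, so that in HCT116 the run stood well above the 250 kb on either side.

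The other named runs follow, ordered by the role of 1 gene in each, an order made by hand that says nothing of how often such genes occur. INHBA, which encodes the subunit of activin A, and GLI3, a transcription factor of the hedgehog pathway, lie in the run chr7:41350001-42500000. Its column 6 share was 11.5% in set 1, 18.8% in set 2 and 57.4% in HCT116, with column 5 at 53.4, 46.7 and 26.0%. WNT5A, a ligand of non-canonical Wnt signalling, lies in chr3:54800001-55850000. The calcium channel subunit gene CACNA2D3, LRTM1 and ERC2, another active zone protein, lie in or reach into the same run. Shares there were 15.2, 22.7 and 64.0%, the widest gap among the 20 runs at 45.3 points over an RPE1 mean of 18.9% ± 5.29 (SD, n = 2), and its flanks were high in all 3 sets, from 44.1 to 61.6%. GDF6, a BMP family ligand, lies in chr8:96800001-98000000 with UQCRB, MTERF3, PTDSS1, SDC2, a heparan sulfate proteoglycan of the cell surface, and CPQ. That run had shares of 14.1, 21.5 and 50.2%, with 32.2% in column 5 in HCT116. UQCRB, a subunit of respiratory complex III, and MTERF3, a regulator of mitochondrial transcription, serve functions that every cell uses. PTN, a heparin-binding growth factor, lies in chr7:136550001-137450000 with CHRM2 and DGKI, at 23.9, 26.9 and 60.7%.

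ADAMTS1 and ADAMTS5, secreted proteases that cleave matrix proteoglycans, lie in chr21:28050001-29300000, at 30.5% in set 1, 30.8% in set 2 and 62.6% in HCT116. Set 1 and set 2 differed least there among the 20 runs, with a mean of 30.6% ± 0.248 (SD, n = 2), and HCT116 is 32.3 points higher. PAPPA, a protease that cleaves binding proteins of insulin-like growth factors, lies in or reaches into chr9:117950001-119050000, at 9.19, 18.2 and 51.8%. POSTN, the matrix protein periostin, and TRPC4, a cation channel, lie in chr13:37850001-38850000, at 21.4, 25.6 and 60.4%. CDH2, which encodes N-cadherin, a marker of mesenchymal and neural cells, lies in chr18:25150001-26000000, at 15.4, 22.4 and 62.7%. A window in the CDH2 run had the largest gap to the nearer RPE1 set of all member windows, 57.2 points. TENM3, a cell adhesion protein of neurons, is named for chr4:182400001-183250000, at 20.2, 23.6 and 62.9%. Where its start lies relative to that run was not checked in hg19. SEMA5A, a semaphorin that guides axons, lies in chr5:8650001-9550000, at 21.5, 23.8 and 60.5%.

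TRPS1, a zinc finger repressor of the GATA type, lies in chr8:115950001-117300000, the second longest run, at 33.7% in set 1, 31.3% in set 2 and 64.1% in HCT116. It is the only named run in which set 1 was above set 2. The muscarinic receptor gene CHRM3, the formin gene FMN2 and RGS7, a regulator of G protein signalling, lie in or reach into chr1:239900001-241150000. Its shares were 10.9, 21.1 and 59.3%, and column 4 and column 5 were close in RPE1, at 42.7 and 46.4% in set 1 and 41.3 and 37.7% in set 2. ARPP21, with MIR128-2 inside it, and STAC lie in chr3:35450001-36600000, at 24.3, 26.1 and 61.3%. KCNJ16 and KCNJ2, inward rectifier potassium channels, lie in chr17:67550001-68450000, at 24.7, 28.4 and 62.2%. PDE4D, a cyclic AMP phosphodiesterase, lies in or reaches into chr5:58700001-59600000, at 22.6, 24.99 and 58.8%. PRR16 lies in chr5:119350001-120250000, at 22.7, 27.4 and 58.5%. SPDL1, a spindle protein, DOCK2, an exchange factor for Rac in blood cells, with INSYN2B, and FOXI1, a forkhead factor, lie in chr5:168700001-169650000, at 9.57, 18.9 and 57.0%. DPYSL3, JAKMIP2 and SPINK1, a trypsin inhibitor, lie in chr5:146600001-147450000, at 10.2, 19.98 and 53.2%. Tied at 850 kb with the last named runs, though outside the 20, are chr2:144700001-145550000 with ZEB2, a repressor of E-cadherin, at 17.9, 22.5 and 50.4%, and chr9:13650001-14500000 with NFIB, a nuclear factor I gene, at 18.2, 22.96 and 49.7%.

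**Figure D5:**
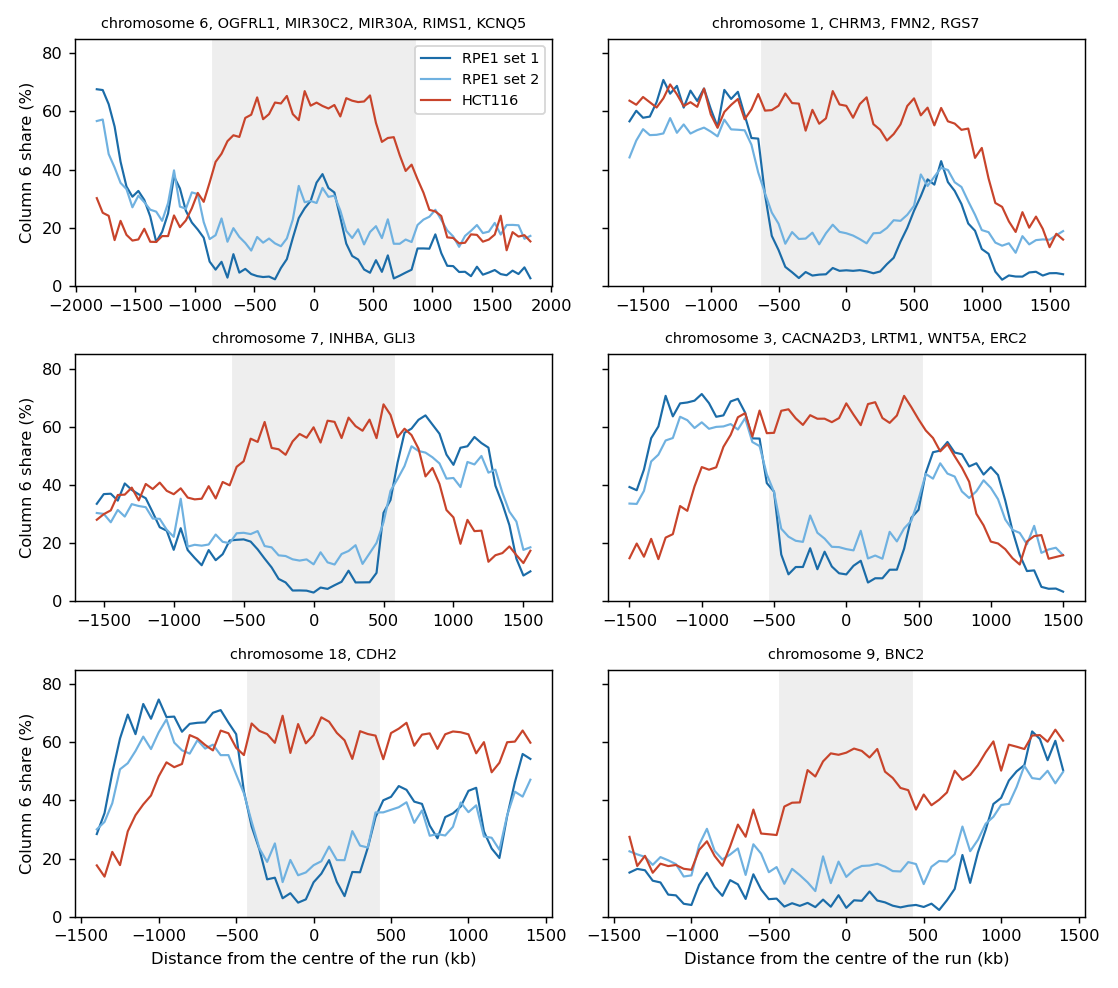
Column 6 share (percent, vertical axis) of 50 kb windows by distance from the centre of 6 named runs (kb, horizontal axis), for set 1, set 2 and HCT116, with the run shaded. HCT116 lies above both RPE1 sets over each shaded run, as the rule requires. In the chromosome 6 run RPE1 rises in the middle, at 26.8 and 28.1%, and over BNC2 set 1 stays low, at 4.74%.

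BNC2, which encodes a zinc finger protein, lies in the longest run with column 4 as its origin, chr9:16100001-16950000. Column 4 held 54.8% in set 1, 51.8% in set 2 and 18.3% in HCT116. Column 6 held 4.74, 15.9 and 50.0%. The windows of the run ranged from 3.08 to 8.69% in set 1, 8.84 to 20.8% in set 2 and 37.9 to 57.9% in HCT116. By the rule HCT116 lies at least 20 points above both RPE1 sets in each of them. Both flanks stayed low in RPE1, at 8.49 and 4.00% in set 1 and 18.7 and 16.96% in set 2, and reached 29.9 and 40.1% in HCT116. The next longest runs of this origin were chr8:12850001-13650000, chr8:118250001-118750000, chr7:31700001-32100000 and chr1:243800001-244150000. Their column 6 shares were 7.47, 7.76, 10.6 and 5.21% in set 1, 18.2, 18.1, 21.2 and 17.3% in set 2, and 56.8, 47.1, 53.3 and 42.2% in HCT116. In all 5 of these runs set 2 was more than 10 points above set 1. Low column 6 shares differed in this way over all kept windows too, with a 10th percentile of 3.53% in set 1 and 15.5% in set 2. The offset is thus not particular to these runs.

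The gene lists set for this work could not be counted, because no hg19 gene positions were used here. The genes above are those known to lie in or reach into the longest runs, and no share of any pathway is given. Whether their transcription differs between the lines was not measured.

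Member windows were spread unevenly over the autosomes. They made up 8.55% of kept windows on chromosome 8 (245 windows), 7.33% on chromosome 5 (261) and 6.89% on chromosome 21 (49), and these 3 chromosomes held 555 member windows (26.0%). Chromosome 20 had 11 (0.921%), chromosome 19 had 0 of 1121 kept windows and chromosome 22 had 0 of 701. Read depth differed between the lines on some of these chromosomes. The part of all reads that fell on chromosome 8 was 1.25 ± 0.00875 (SD, n = 2) times as large in HCT116 as in RPE1, while it was 1.01 times as large on chromosomes 5 and 21 and 0.932, 0.931 and 0.958 times as large on chromosomes 19, 22 and 20. Chromosome 17 had the second highest ratio, 1.12, and 1.41% of its kept windows were members. A share within a table compares columns of the same window, and the part of copy number in the result was not tested.

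Summed over the 3 scaled columns, the member windows also held more of the reads in HCT116. Their part of all scaled reads was 2.97% in set 1, 3.57% in set 2 and 4.01% in HCT116. HCT116 was 1.35 times set 1 and 1.12 times set 2, a mean of 1.24 ± 0.161 (SD, n = 2), while set 1 was 0.831 of set 2. The windows with a lower column 6 share in HCT116 stood at 0.904 ± 0.0785 (SD, n = 2). Without chromosomes 8, 10, 16 and 17 the member ratio was 1.19. The difference between set 1 and set 2, with set 1 the lower, was larger than that between set 2 and HCT116.

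The windows were also chosen on 1 RPE1 set and read in the other. The HCT116 values are the same in both readings, so a like sign follows in large part from them, and the counts only describe how the RPE1 sets differ. Windows chosen on HCT116 against set 1 alone numbered 3069, with a mean gap of 31.2 points. In set 2 the same windows had a mean gap of 25.5 points, 3066 had the same sign and 69.6% were past 20 points. Windows chosen against set 2 alone numbered 2686 with a mean gap of 28.9 points. In set 1 their mean gap was 30.4 points, all 2686 had the same sign and 79.6% were past 20 points. In both readings the windows past 20 points are by definition the 2137 member windows. The 69.6 and 79.6% are therefore no measure of how well the choice is reproduced. When 2128 windows were chosen on odd 1 kb bins in all tables, the even bins gave a mean gap of 31.4 points, against 32.8 in the odd bins. Past the rule in the even bins were 1721 (80.9%), and 2127 had the same sign. The bins share their libraries, so this reading covers counting error and no error between libraries.

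The threshold cut through a continuous range. The 5 member windows nearest to it had gaps to the nearer RPE1 set from 20.0041 to 20.0189 points, and the 5 windows nearest outside it from 19.9807 to 19.9967. Within 1 point of the threshold lay 165 windows inside and 167 outside. A member near the threshold, chr5:120150001-120200000, had column 6 shares of 31.7, 32.7 and 52.7% in set 1, set 2 and HCT116, and a window just outside, chr5:30100001-30150000, had 44.0, 37.8 and 64.0%.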

How the data were processed

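EdU-marked DNA of RPE1 (2 sets) and HCT116 (1 set), each in 3 S phase fractions, was sequenced as single-end reads. The authors deposited 1 table of raw read counts per set, in 1 kb bins of hg19 with 3 count columns, and the column totals differ, so the counts were not scaled before deposit. The tools named, per the submitters' processing notes, are Bowtie2, bedtools 2.25 and SAMtools 1.2, without their roles, and the build is hg19. Table names in the labels read as if duplicate reads had been taken out, and mapping settings are not given in the sources used here. Reads that map to several places, and copy number of a cell line, change the counts of a bin. The 9 count columns carry no names and were tied to their set, not to a single library, so any comparison that needs a named fraction was left out.

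Bins were summed, filtered and scaled with Python 3.11.15, NumPy 2.4.6, pandas 2.3.3, SciPy 1.17.1 and matplotlib 3.10.9 as described above, each column being scaled over the kept windows. Run intervals are Wilson intervals of the read counts carried to the scaled share. The steps were checked on simulated data with known answers. Regions named in the text are the 20 longest runs, ties going to the larger mean difference, the 5 longest of each origin, the windows nearest the threshold and the 3 chromosomes with the highest and lowest share of members. The member windows and the lists were chosen with earlier results of these data known. Alternatives tried were the window size, difference, read minimum, total used for scaling, rank scaling, thinning, bin parity, extreme bins, columns 4 and 6 alone, bridged runs and leaving out each RPE1 set. Some genes in the named runs are not reported here.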

Additional observations from a re-analysis of the deposited data

Results flagged for a closer look

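Chromosome X was outside the choice of windows, which used the autosomes. Of 3037 kept windows on it, 3 passed the same rule (0.0988%), and 692 (22.8%) passed the opposite one. The 3 windows are chrX:139400001-139450000, chrX:140450001-140500000 and chrX:140500001-140550000. Their column 6 shares were 42.6, 40.3 and 32.9% in set 1, 43.2, 36.4 and 33.6% in set 2, and 65.1, 60.9 and 58.5% in HCT116. HCT116 held 227, 216 and 248 reads there, beside 600, 470 and 498 in set 1 and 866, 795 and 889 in set 2. The part of X chromosome copy number in these counts and shares was not tested.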

How the results depend on the processing

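Of 54 alternatives over 4 results, 45 stayed within the replicate spread or within 1.5 times the reported count, 9 moved and 0 reversed. The 16 alternatives for member windows and the 17 for runs could be counted only as same or moved. A reversal could be counted only for the origin and the depth ratio. Member windows were 3.96% of kept windows, and became 2.55% with a difference of at least 25 points, 1.58% with 30 points and 6.02% with HCT116 placed on RPE1 ranks. Leaving out 1 RPE1 set could only add windows and gave 4.98 to 5.69%. The 469 runs became 1425 in 20 kb windows, 283 in 100 kb windows and 244 with a difference of 30 points, and 610 to 612 without 1 RPE1 set. The larger column in RPE1 was column 5 in 89.9% of windows, in 84.9 to 91.9% without 1 RPE1 set (84.9% without RPE1 set 2), in 74.4% when columns 4 and 6 alone chose the windows, and 80.7% when counted by the column that lost more share. With columns 4 and 6 alone 66.3% of member windows were kept. Thinning all columns to 6170299 reads kept 93.5% and odd or even bins 90.1%. The depth ratio was 1.12 to 1.35 without 1 RPE1 set. These values were compared with their own mean and SD, so they could not have been counted as moved. The cause of these moves was not tested. Depth limits single windows more than runs, and the lack of an HCT116 replicate limits every difference between the lines. No paired analysis was possible because HCT116 is 1 set, so the lines share fewer than 2 replicate numbers.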
